A study of Mus musculus with 4 samples.

Results

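The olfactory, vomeronasal and taste receptor genes of the mouse were read in a bisulfite study of the cell line C3H10T1/2. Members were the genes whose GENCODE vM21 symbol begins with Olfr (olfactory receptors), Vmn1r or Vmn2r (vomeronasal receptors of type 1 and type 2) or Tas2r (bitter taste receptors), and that had a methylation level in all 4 libraries in the promoter, the exons or the introns. The annotation holds 2012 such genes, and 242 of them (12.03%) met this condition, out of 27858 genes of any kind that did. They were 148 Olfr, 24 Vmn1r and 70 Vmn2r genes, and no Tas2r gene was among them. Promoter levels were available for 93 receptor genes (66 Olfr, 12 Vmn1r, 15 Vmn2r), exon levels for 94 (77, 7 and 10) and intron levels for 97 (34, 8 and 55).

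C3H10T1/2 is a clonal line of mesenchymal stem cells derived from embryos of C3H mice. Cells were transfected for 48 h with siRNA against DNMT1, the enzyme that copies CpG methylation onto newly made DNA (siDNMT1), or with a control siRNA (NC). Each was sequenced uninduced and after 3 days of induction towards osteoblasts (OB) with ascorbic acid, β-glycerophosphate and dexamethasone. The 4 groups are called NC, siDNMT1, NC OB and siDNMT1 OB, and each was 1 library, so no difference below has a replicate check and none was tested. The value per region is the methylation level, the fraction of CpG cytosines read as methylated, from 0 to 1. Read counts are not part of these values, so the depth behind a level is unknown and no interval was computed for it. Expression was not analysed here, so neither the depletion of DNMT1 nor the cell type could be checked in these libraries, and nothing is said of whether a receptor was transcribed.

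Olfactory receptors are the odorant receptors of the nose and form the largest gene family of the mouse. Each olfactory neuron transcribes a single allele of a single receptor gene, while the other copies lie in silent heterochromatin, and the genes sit in long tandem clusters together with many pseudogenes. Vomeronasal receptors detect pheromones and related cues, and Tas2r receptors detect bitter compounds. Promoters of these families are mostly poor in CpG, unlike the CpG island promoters of widely expressed genes.

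Which receptors had a level followed the sequence before the gene. Reduced representation libraries are usually cut with MspI, an enzyme that cuts at CCGG, although the library protocol in the sample labels describes sonication and names no enzyme. Of the 1106 receptor genes with no CCGG in the 2 kb before any annotated transcript start, 0 had a promoter level in all 4 libraries, compared with 93 of the 906 genes with at least 1 such site. Counted before the gene start alone, a promoter level was present for 0.550% of the 1272 receptors with no site, 3.03% of 495 with 1, 22.1% of 136 with 2, 29.8% of 57 with 3 and 46.2% of 52 with 4 or more. At each of these numbers, other protein-coding genes had a level more often, from 22.4% with no site to 93.8% with 4 or more. Where the 2 kb touched a stretch of 40 to 220 bases between neighbouring CCGG sites, 68 of 147 receptors had a level, against 25 of the 1865 without one. The 7 listed promoters with no CCGG before the gene start (Vmn1r82, Olfr373, Vmn2r5, Olfr707, Olfr740, Vmn2r-ps34 and Vmn1r81) had one before another transcript start of the gene. Exon levels followed the same sites: all 94 receptors with an exon level held a CCGG in an exon, compared with 40.6% of those with an exon level in none of the libraries. Among the 40 Tas2r genes, 11 had a CCGG before a transcript start and 0 had a stretch of that length.

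**Figure D1:**
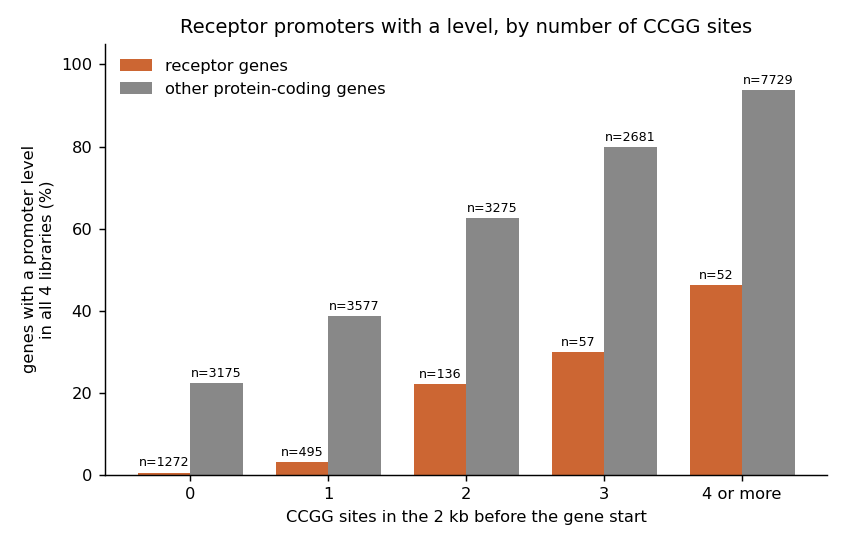
Share of genes with a promoter level in all 4 libraries (vertical axis, percent) by the number of CCGG sites in the 2 kb before the gene start (horizontal axis), for receptor genes and other protein-coding genes, with the number of genes above each bar. The receptor bars rise from 0.550% to 46.2% and stay below those of the other genes at each number of sites.

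The sequences that could carry these levels are shown for 8 promoters. These were named below for an extreme level or a large difference, and held a stretch of the length given above. Each sequence is the CCGG-to-CCGG stretch nearest the gene start within the 2 kb before it. It comes from the GRCm38.p6 assembly of the C57BL/6J strain, on the strand of the gene and 5′ to 3′, with each CpG in capitals. The first 4 are promoters at low and middle levels, and the last 4 are among the most methylated. The promoters with the largest siRNA differences, Olfr1311, Olfr740 and Olfr373, held no such stretch wholly inside the 2 kb and are not shown. A level covers all the cytosines read in a promoter, so these files do not tie it to single bases, and the C3H sequence may differ.
Vmn1r4 (chr6:56923893-56923990, plus strand): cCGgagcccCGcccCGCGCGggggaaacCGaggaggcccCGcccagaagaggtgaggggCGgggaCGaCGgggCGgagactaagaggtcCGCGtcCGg
Olfr1417 (chr19:11840740-11840840, minus strand): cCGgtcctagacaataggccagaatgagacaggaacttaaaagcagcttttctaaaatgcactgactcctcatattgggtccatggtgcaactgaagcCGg
Olfr944 (chr9:39201325-39201423, plus strand): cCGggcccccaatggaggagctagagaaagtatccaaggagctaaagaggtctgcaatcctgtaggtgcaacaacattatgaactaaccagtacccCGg
Olfr1447 (chr19:12903942-12904136, minus strand): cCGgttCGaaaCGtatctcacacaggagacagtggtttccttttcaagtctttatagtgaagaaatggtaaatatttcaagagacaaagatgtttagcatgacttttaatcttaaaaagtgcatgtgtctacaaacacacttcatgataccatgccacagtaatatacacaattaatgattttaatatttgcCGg
Olfr840-ps1 (chr9:19206546-19206660, minus strand): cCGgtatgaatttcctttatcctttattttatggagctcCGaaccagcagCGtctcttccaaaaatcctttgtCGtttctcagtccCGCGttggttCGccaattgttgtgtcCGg
Olfr471 (chr7:107862972-107863161, minus strand): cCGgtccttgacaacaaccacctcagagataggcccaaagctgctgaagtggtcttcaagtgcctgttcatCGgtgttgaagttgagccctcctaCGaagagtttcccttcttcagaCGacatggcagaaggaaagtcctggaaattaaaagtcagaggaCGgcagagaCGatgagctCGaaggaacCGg
Olfr1267-ps1 (chr2:90087493-90087546, minus strand): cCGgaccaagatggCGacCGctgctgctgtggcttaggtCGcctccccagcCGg
Olfr1393 (chr11:49276592-49276782, plus strand): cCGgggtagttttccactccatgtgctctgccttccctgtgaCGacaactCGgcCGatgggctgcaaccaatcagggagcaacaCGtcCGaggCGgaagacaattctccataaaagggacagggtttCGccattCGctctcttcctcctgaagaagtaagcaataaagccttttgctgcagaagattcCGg

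Of the 93 listed receptor promoters, 59 had such a stretch wholly inside the 2 kb. The stretches held between 2 and 14 CpG, with a median of 3, and their median length was 153 bases. In Olfr1417 and Olfr944 the flanking sites supplied the only 2 CpG. The stretch of Vmn1r4 held 14 CpG in 98 bases, and the 2 kb before this gene also covers an exon of Nt5c3, a nucleotidase gene. An exact copy elsewhere in the assembly limits what can be said of a promoter, since reads from the copies cannot be told apart. Exact search covered only the stretch nearest the gene start and found 56 of the 59 once. Olfr927-ps1 and Olfr928-ps1 share 1 stretch, which is counted for each. Further stretches in a window, of which Olfr641 had 10 in all, were not searched. The stretch of Olfr1267-ps1 occurred 1216 times, that of Olfr1271 314 times and that of Olfr641 3 times, so the levels of these promoters may draw on sequence outside the gene. Near copies that differ by a few bases were not searched.

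Receptor promoters lay at intermediate levels. Their median level was 0.335 in NC, 0.330 in siDNMT1, 0.341 in NC OB and 0.334 in siDNMT1 OB. The median over all 20152 promoters was 0.191, 0.188, 0.174 and 0.164 in the same order, so the receptor median was the higher one in each library. Levels in the middle of the scale were the common case among receptors: by the mean of the 4 libraries, 26 of 93 (28.0%) lay under 0.2, 52 (55.9%) from 0.2 to under 0.6 and 15 (16.1%) at 0.6 or above. For all promoters the same shares were 51.5%, 31.1% and 17.4%. Medians of the mean level were 0.339 for Olfr, 0.265 for Vmn1r and 0.325 for Vmn2r promoters. The quartiles overlapped widely, from 0.212 to 0.554 for Olfr, 0.131 to 0.401 for Vmn1r and 0.205 to 0.429 for Vmn2r.

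**Figure D2:**
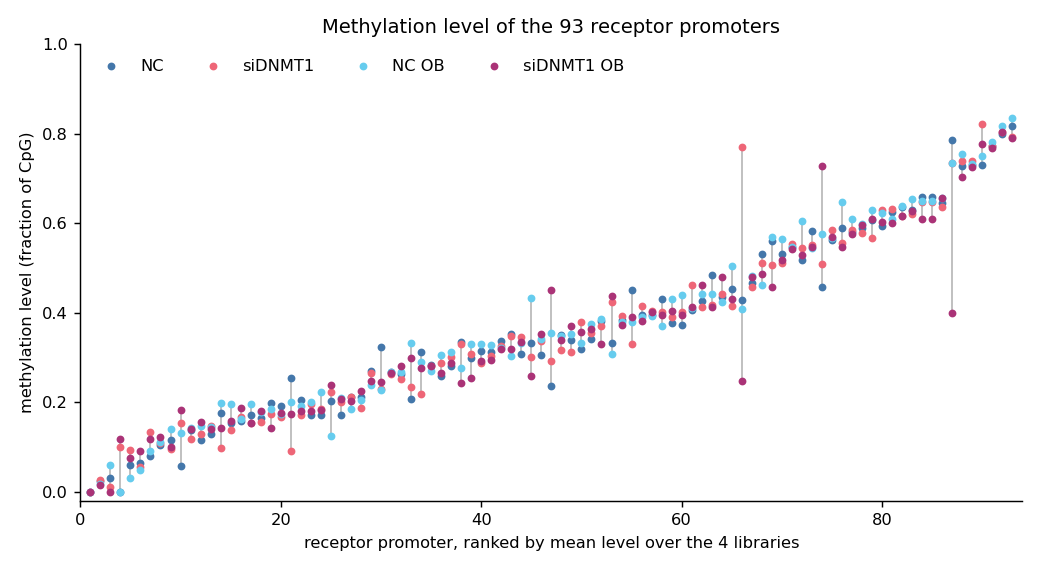
Methylation level (vertical axis, fraction of CpG from 0 to 1) of the 93 receptor promoters in the 4 libraries, ranked along the horizontal axis by their mean over the libraries, with a grey line from the lowest to the highest library of each promoter. Mean levels run from 0 to 0.809, and 52 of the 93 lines are shorter than 0.05.

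A promoter's level varied little between libraries in most cases. The range over the 4 libraries had a median of 0.0462, was under 0.05 for 52 promoters and at least 0.2 for 4. The lowest promoter was that of Olfr388-ps1 (chr11:73723322-73727511, minus strand), annotated as a polymorphic pseudogene, which was listed at 0 in all 4 libraries. Vmn1r4 (chr6:56924015-56958100, plus strand) had levels of 0.0244 in NC, 0.0259 in siDNMT1, 0.0183 in NC OB and 0.0161 in siDNMT1 OB. Olfr517 read 0.0299, 0.0109, 0.0595 and 0, and Olfr369-ps1 0.0596, 0.0929, 0.0308 and 0.0747, in the same order. Olfr971, also among the 5 lowest, is described with the siRNA comparisons.

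At the other end stood Olfr1393 (chr11:49278304-49282769, plus strand), a receptor known outside the nose for its expression in the kidney. Its promoter had levels of 0.818 in NC, 0.792 in siDNMT1, 0.835 in NC OB and 0.789 in siDNMT1 OB, with both siDNMT1 libraries below both NC libraries by a margin smaller than 0.05. Olfr1267-ps1, whose repeated stretch is printed above, read 0.799, 0.804, 0.817 and 0.804. Olfr471, annotated as a pseudogene, read 0.772, 0.772, 0.781 and 0.768. The remaining 2 of the 5 highest were Olfr56, with levels of 0.730, 0.821, 0.750 and 0.778, and Olfr840-ps1, with levels of 0.730, 0.739, 0.731 and 0.725. These promoters kept a high level in all 4 libraries.

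The number of CpG before the gene separated receptor promoters in the opposite way to other promoters. A listed receptor promoter had a median of 15 CpG in the 2 kb before the gene start, the annotated receptors a median of 7, and all listed promoters a median of 38. Receptor promoters with 0 to 9 CpG had a median level of 0.226 (n = 22), those with 10 to 14 CpG 0.230 (n = 24), those with 15 to 19 CpG 0.345 (n = 20), those with 20 to 29 CpG 0.524 (n = 13), those with 30 to 49 CpG 0.533 (n = 8) and those with 50 or more CpG 0.513 (n = 6). Other promoters fell from 0.336 in the class with the fewest CpG to 0.0447 in the class with the most. Across the 93 receptor promoters the level and the CpG number had a Spearman correlation of 0.46 and a Pearson correlation of 0.36. Across 20035 other promoters the correlations were -0.34 and -0.29. These are descriptions over promoters that share the same libraries and often the same cluster. The share of the 2 kb that is masked as repeat had a Spearman correlation of -0.04 with the receptor level. With 20 or more CpG, that share had a median of 41.05% in receptor promoters and 18.85% in other promoters. Within this class the CpG in masked sequence ranged from 0 of 28 before Olfr471 to 32 of 33 before Olfr840-ps1. No correlation of the level with the masked CpG was computed. Vmn1r4, with 78 CpG and a level near 0.02, was the exception among the CpG-rich receptor promoters. Of the 93 receptor windows, 14 lay over an exon of another gene. With 50 or more CpG these were Vmn1r4, Vmn2r-ps18, Vmn2r-ps19 and Olfr278-ps1. The others in that class, Olfr641 and Olfr1267-ps1, hold a stretch with exact copies elsewhere. From 20 to 49 CpG the windows over another exon were Vmn2r60, Vmn2r104, Vmn2r-ps54, Olfr1447, Olfr1127-ps1 and Olfr471. The trend with CpG number was not recomputed without these promoters.

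**Figure D3:**
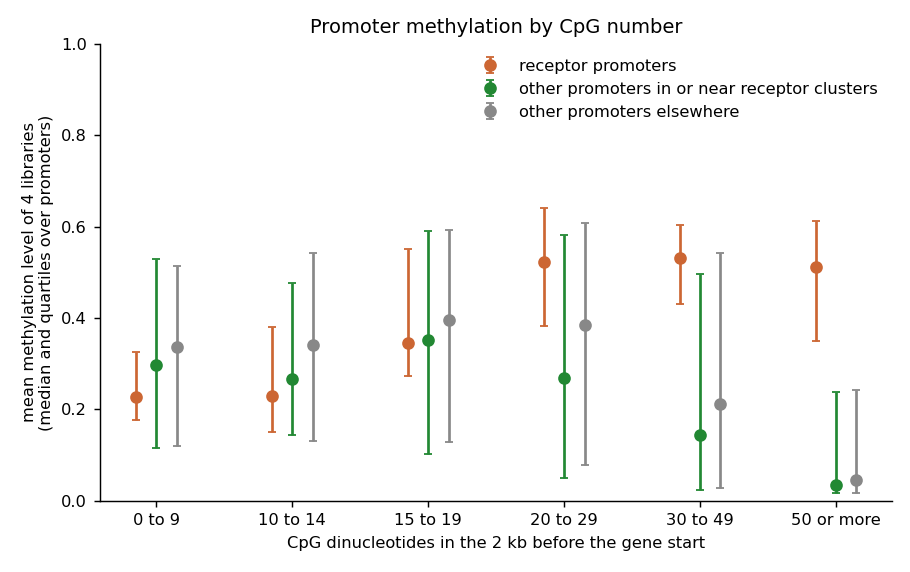
Mean methylation level of the 4 libraries (vertical axis, median and quartiles over promoters) by the number of CpG in the 2 kb before the gene start (horizontal axis), for receptor promoters, other promoters within 0.5 Mb of receptor clusters, and other promoters elsewhere. Receptor promoters stand at about 0.23 in the 2 classes with the fewest CpG and above 0.5 from 20 CpG upwards, whereas the other promoters drop to under 0.05 at 50 or more CpG.

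Genes beside the receptors did not share this pattern. Receptor genes of a chromosome with gaps under 1 Mb formed 98 clusters. The 35 clusters with at least 10 annotated receptors held 1860 of the 2012 genes and 211 of the 242 measured ones. Other promoters inside or within 0.5 Mb of these 35 clusters had a median level of 0.153 (n = 892), close to the 0.180 of other promoters elsewhere (n = 19143), while the receptor promoters stood at 0.334. With fewer than 20 CpG, the medians were 0.287 for receptors (n = 66), 0.319 for their neighbours (n = 176) and 0.375 elsewhere (n = 2453). With 20 or more CpG, they were 0.524 (n = 27), 0.107 (n = 716) and 0.147 (n = 16690). The order of receptors and neighbours thus turned with CpG number.

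Chromosome 7 carried 68 of the 242 measured receptors, more than any other chromosome, followed by 23 on chromosome 2 and 23 on chromosome 17. It also holds annotated clusters of 156, 114, 80 and 78 receptor genes. The counts were not set against annotated receptors per chromosome, so they are no trait of the measured ones. The class I olfactory receptors, the family thought to be the older, form a single cluster on chromosome 7 around the β-globin genes (chr7:102476579-105369355, 156 annotated genes). It was the only cluster with at least 10 listed promoters. Its 10 promoters had a median level of 0.259 in NC, 0.297 in siDNMT1, 0.308 in NC OB and 0.271 in siDNMT1 OB, against 0.395, 0.402, 0.385 and 0.386 for the 56 other Olfr promoters. For exons the order was the opposite, with 0.520, 0.525, 0.549 and 0.531 in 9 class I genes and 0.388, 0.381, 0.401 and 0.392 in 68 other Olfr genes. The quartiles of both kinds of promoter overlapped, from 0.207 to 0.322 for class I and from 0.241 to 0.575 for the others.

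Levels by gene type were close in promoters and introns and further apart in exons, where few genes were not protein coding. The 62 promoters of protein-coding receptors had a median level of 0.334 (quartiles 0.256 and 0.469), and the 31 promoters of receptors of other gene types, nearly all pseudogenes, had 0.339 (0.182 and 0.592). For introns the medians were 0.389 in 76 protein-coding genes and 0.370 in 21 others. For exons they were 0.403 in 87 protein-coding genes and 0.255 in 7 others.

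The median exon and intron levels of receptors lay near the median promoter level, though over mostly different genes. Receptor exons had a median of 0.378 in NC, 0.381 in siDNMT1, 0.390 in NC OB and 0.388 in siDNMT1 OB, where all exons had 0.361, 0.358, 0.348 and 0.334. Receptor introns had 0.376, 0.362, 0.394 and 0.370, where all introns had 0.424, 0.418, 0.417 and 0.4003. The 3′ UTRs differed more from the rest of the genome: 45 receptor entries had a median of 0.319, 0.315, 0.337 and 0.306, against 0.675, 0.667, 0.673 and 0.650 over all 4354. The 10 receptor 5′ UTRs had 0.318, 0.334, 0.331 and 0.322, against 0.0286, 0.0296, 0.0258 and 0.0262 over all 11491. The receptor medians lay between 0.306 and 0.394 in all 5 classes of region and all 4 libraries. The medians of all genes ran from 0.0258 to 0.675. Most receptor 3′ UTR entries carried exactly the exon values of the same gene, such as Olfr1152. Several 5′ UTR entries repeated a promoter or exon entry, such as Olfr517 and Vmn1r4. The classes of receptor entries are therefore not separate measurements.

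Within single genes the classes could stand far apart. Olfr1344 (chr7:6438688-6442161, plus strand) had a promoter level of 0.138 in NC, 0.119 in siDNMT1, 0.142 in NC OB and 0.140 in siDNMT1 OB, and an exon level of 0.821, 0.794, 0.828 and 0.803. Olfr56 showed the reverse, with an exon level of 0.324, 0.270, 0.181 and 0.186 beside its high promoter. Of the 12 genes with both a promoter and an exon level, the exon was higher in 7, the promoter in 4, and 1 had identical values. Identical values in all 4 libraries show where entries rest on the same cytosines. They occurred in 8 of the 19 genes with both a promoter and an intron level (Olfr1428, Olfr259, Olfr368, Olfr707, Olfr740, Olfr984, Vmn1r81 and Vmn1r82) and in 3 of the 13 with an exon and an intron level. The neighbouring pseudogenes Olfr927-ps1 and Olfr928-ps1 also shared 1 promoter value per library, and the promoter of Olfr278-ps1 repeated the exon value of Olfr279, inside which it lies. Such pairs are a single measurement.

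Depletion of DNMT1 before induction left receptor promoters centred near 0 difference. The median of siDNMT1 minus NC was -0.00295 over the 93 receptor promoters and -0.000713 over all promoters, with 49 receptor promoters lower and 43 higher. A change is counted below from a difference of 0.1. By this rule 2 receptor promoters fell, where 0.814% of all promoters fell, and 2 rose, where 0.670% of all rose. The median size of the difference was 0.0199 in receptors, against 0.00805 over all promoters. With fewer than 20 CpG the sizes were closer, at 0.0209 in receptors and 0.0141 in other promoters. Among promoters with fewer than 20 CpG, where 66 of the 93 receptor promoters lay, 3.03% of receptors fell and 3.03% rose, beside 2.28% and 1.29% of the 2629 others.

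The largest fall before induction was at Olfr1511 (chr14:52389794-52397379, minus strand), with promoter levels of 0.254 in NC, 0.0909 in siDNMT1, 0.2 in NC OB and 0.174 in siDNMT1 OB. Its difference of -0.163 shrank to -0.0261 after induction. Olfr707 (chr7:106890446-106901241, minus strand) read 0.451, 0.330, 0.3802 and 0.390, a fall of 0.121 before induction and a difference of 0.0101 after it. The next in size stayed under the 0.1 mark, namely Olfr1342 at -0.0939 and Olfr1417, whose stretch is printed above, at -0.0926. Both had differences within 0.02 of 0 after induction.

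The largest rise was at Olfr1311 (chr2:112019656-112024412, minus strand). Its promoter read 0.429 in NC, 0.769 in siDNMT1, 0.409 in NC OB and 0.247 in siDNMT1 OB. The 2 NC libraries lay close together, while the siDNMT1 libraries stood far above before induction (0.341) and below after it (-0.163). Olfr971 (chr9:39836876-39841281, plus strand) was listed at 0 in NC, 0.1 in siDNMT1, 0 in NC OB and 0.118 in siDNMT1 OB. No other receptor promoter passed 0.1 with one sign both before and after induction, and here the sign was upwards. By repeat masking, 93.1% of the 2 kb before Olfr971 is repeat sequence. Read counts are not given for Olfr1311 or Olfr971, and few reads could lie behind such values, which was not tested. Olfr1494 and Olfr56 followed with differences of 0.0967 and 0.0917 before induction, and of 0.0514 and 0.0278 after it.

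After OB induction more receptor promoters were lower with DNMT1 siRNA than higher. The median of siDNMT1 OB minus NC OB was -0.00634, and 56 were lower and 36 higher. All promoters also tended downwards, with a median of -0.00371 and 64.0% lower against 60.2% of the receptors. Once each library was shifted to the same median over all promoters, the receptor median turned to 0.00370. That shift follows the library medians, 0.174 in NC OB and 0.164 in siDNMT1 OB. They lay further apart than the median difference per promoter, so the sign after the shift depends on the method. Without it the receptor median lay below that of all promoters. By the 0.1 rule 5 receptor promoters fell, where 1.40% of all promoters fell, and 4 rose, where 0.789% of all rose. Among promoters with fewer than 20 CpG, 4 of 66 receptors fell (6.06%) and 3 rose (4.55%), beside 2.74% and 1.83% of the others.

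Olfr740 (chr14:50445545-50456933, plus strand) fell the most, with levels of 0.786 in NC, 0.733 in siDNMT1, 0.735 in NC OB and 0.4 in siDNMT1 OB. The first 3 libraries lay within 0.06 of each other and the fourth was lower by 0.335 than NC OB. Olfr373 read 0.333, 0.302, 0.433 and 0.259, a difference of -0.174. Olfr1447 (chr19:12899434-12903743, minus strand) read 0.561, 0.506, 0.569 and 0.458, so both siDNMT1 libraries lay below both NC libraries, with differences of -0.0549 before and -0.111 after induction. Vmn1r82, the only vomeronasal promoter that fell, read 0.590, 0.555, 0.648 and 0.548, just past the mark at -0.1002.

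Among the rises, Vmn2r-ps54 (chr7:41667979-41727193, plus strand) read 0.457, 0.510, 0.576 and 0.727, a difference of 0.0533 before and 0.152 after induction. Olfr944 (chr9:39201920-39218421, plus strand) read 0.333, 0.423, 0.308 and 0.438. Both of its siDNMT1 libraries stood above both NC libraries, by 0.0897 and 0.130. Olfr971 rose by 0.118, as given above, and Olfr259 by 0.114, with levels of 0.202, 0.222, 0.125 and 0.239. For Olfr259 the NC OB library was the low one and the other libraries lay within 0.04.

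**Figure D4:**
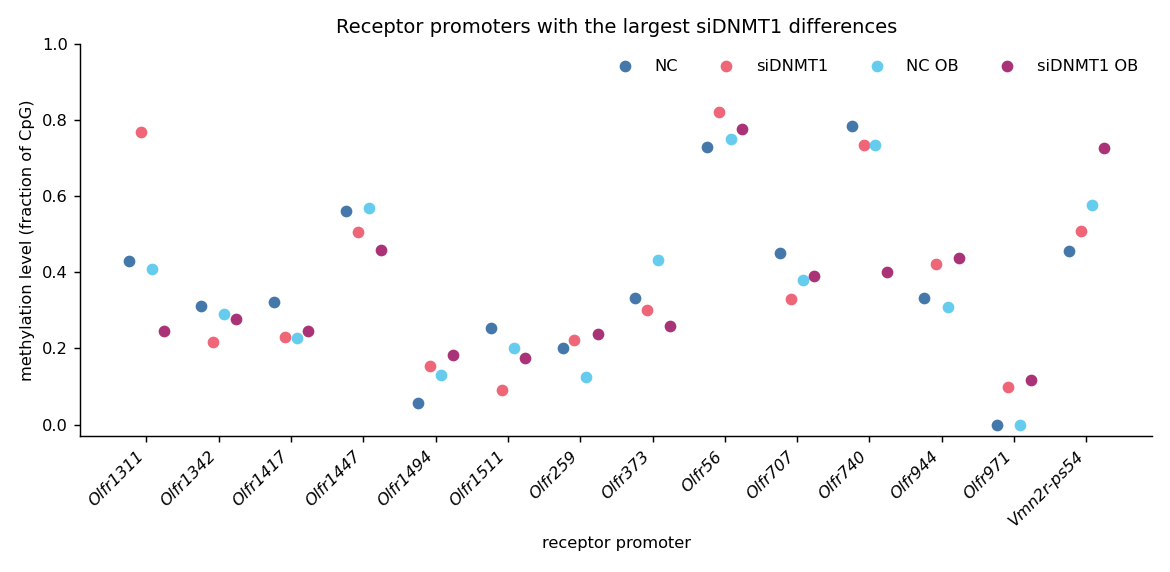
Methylation level (vertical axis, fraction of CpG) in each of the 4 libraries for the 14 receptor promoters with the 4 largest falls and rises of either siRNA comparison (horizontal axis). Olfr1311 and Olfr740 span 0.523 and 0.386 between their libraries. At Olfr971, Olfr944, Vmn2r-ps54, Olfr1494, Olfr56 and Olfr259 the siDNMT1 libraries lie above their NC partners in both states. At Olfr1511, Olfr1342, Olfr740, Olfr373 and Olfr1447 they lie below in both.

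The 2 siRNA comparisons named mostly different receptors, and mostly different promoters over the whole genome too. In all, 11 receptor promoters (11.8%) changed in at least 1 of them, against 3.19% of all promoters. Among the 11, 0 fell in each comparison, 1 (Olfr971) rose in each and 1 (Olfr1311) had opposite signs. Of the 642 promoters of any kind that changed in at least 1 comparison, 26 fell in each, 22 rose in each and 50 had opposite signs. Of the 11 receptor promoters, 9 had fewer than 20 CpG before the gene start, as had 66 of all 93. No CCGG lay there in 4 of the 11 and in 7 of the 93. In 4 of the 11 the value was the same as that of the intron entry of the gene. Protein-coding receptors made up 10 of the 11 and 62 of the 93, and Olfr genes 9 of the 11 and 66 of the 93. Over all 93, 32 promoters were lower with DNMT1 siRNA in both states and 19 were higher in both. Over all 20152 promoters the counts were 7385 and 3869, so the receptor shares lay close to those of all promoters.

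In exons the differences were of the same size. Before induction the median over 94 receptor exons was -0.00454 (all exons -0.00186), 2 fell, where 0.912% of all exons fell, and 1 rose, where 0.721% of all rose. After it the median was -0.0120 (all exons -0.00690) with 62 lower and 32 higher, and 1 fell, where 1.52% of all fell, and 1 rose, where 0.774% of all rose. With libraries shifted to a common exon median the value after induction became 0.00105. Here too the library medians, 0.348 in NC OB and 0.334 in siDNMT1 OB, lay further apart than the median difference per exon. Olfr520 (chr7:99730273-99736399, plus strand) had an exon level of 0.442 in NC, 0.259 in siDNMT1, 0.571 in NC OB and 0.467 in siDNMT1 OB, and was the receptor exon that fell in both states, by 0.183 and 0.105. Olfr1152 read 0.747, 0.587, 0.826 and 0.868, a difference of -0.1601 before induction and of 0.0417 after it. Olfr459 was the most methylated receptor exon, at 0.846, 0.957, 0.941 and 1.000, and rose by 0.110 before induction. Olfr39 read 0.571, 0.5, 0.571 and 0.857, so 1 library stood apart and the difference after induction was 0.286. The remaining exons with the largest differences, Olfr1385 (0.0826 before induction), Olfr554 (-0.0989 after it) and Olfr407-ps1 (0.0773 after it), did not reach the mark.

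Introns held the largest set of vomeronasal entries. Before induction the median over 97 receptor introns was -0.00251 (all introns -0.00436), 2 fell, where 0.769% of all introns fell, and 3 rose, where 0.552% of all rose. After it the median was -0.0142, close to the -0.0131 of all introns, with 66 of 97 lower. By the 0.1 rule 6 fell, where 1.31% of all fell, and 1 rose, where 0.567% of all rose. With libraries shifted to a common intron median the receptor median became 0.00424 before and 0.00211 after induction. For introns as well, the library medians lay further apart than the median difference per entry in both states. Vmn2r117 (chr17:23455173-23479699, minus strand) read 0.0822 in NC, 0.4 in siDNMT1, 0.148 in NC OB and 0.172 in siDNMT1 OB, so the uninduced siDNMT1 library alone was high. Its relative Vmn2r114 on the same chromosome read 0.353, 0.192, 0.295 and 0.25, a fall of 0.161 before induction. Olfr943 rose by 0.110 before induction, from 0.197 to 0.307, with 0.328 and 0.3 after it.

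After induction Vmn2r4 (chr3:64383044-64415368, minus strand) fell by 0.171 in its introns, with levels of 0.175, 0.113, 0.282 and 0.111, while its exons stayed between 0.268 and 0.292 in the 4 libraries. The introns of Olfr740, Olfr707, Olfr259 and Vmn1r82 repeat their promoter values and add nothing. Without such repeated entries the introns that changed after induction were 4, all of type 2 vomeronasal receptors and all lower: Vmn2r4, Vmn2r13 (-0.146), Vmn2r73 (-0.135) and Vmn2r62 (-0.116). Vmn2r13, Vmn2r73 and Vmn2r62 were named after their values were seen. In each of these 4 genes NC OB was the highest of the 4 libraries, which picking introns by their fall from NC OB favours. Vmn2r genes made up 55 of the 97 receptor introns. The largest rise in an intron that repeats no promoter, at Vmn2r16, was 0.0626.

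Between the 2 NC libraries the difference upon OB induction had the opposite sign in receptors and in the rest of the genome. The median of NC OB minus NC was 0.00884 over the 93 receptor promoters, with 57 higher and 34 lower, whereas all promoters had a median of -0.00320 and 63.4% of them were lower. By the 0.1 rule 0 receptor promoters fell, where 1.41% of all promoters fell, and 4 rose, where 0.759% of all rose. The 4 were Olfr550 (0.208 to 0.332), Olfr601 (0.237 to 0.356), Vmn2r-ps54 (0.457 to 0.576) and Olfr373 (0.333 to 0.433), named here after their values were seen. Exons and introns moved the same way, with medians of 0.00854 (58 of 94 higher) and 0.0139 (65 of 97 higher), where all exons had -0.00392 and all introns -0.00430. Past 0.1, 2 receptor exons fell (1.37% of all exons fell) and 1 rose (0.794% of all rose), while 0 receptor introns fell (0.987% of all introns fell) and 6 rose (0.779% of all rose). Shifted to a common promoter median, the receptor promoters had a median of 0.0260. The library medians over all promoters were 0.191 in NC and 0.174 in NC OB. They lay further apart than the median difference per promoter of -0.00320, so the shifted value depends on this choice of shift. The unshifted difference of 0.00884 is small beside the spread between genes: the quartiles over receptor promoters were -0.0134 and 0.0274.

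By family the median of NC OB minus NC over promoters was 0.00391 for Olfr (36 of 66 higher), 0.0283 for Vmn1r (9 of 12 higher) and 0.0124 for Vmn2r (12 of 15 higher). The 10 class I promoters had a median of 0.0266. Among promoters with fewer than 20 CpG the medians were 0.0121 for receptors, 0.00245 for their neighbours and -0.00149 elsewhere, so the gap was also present within this class of CpG number. Under DNMT1 siRNA the same step had a median of siDNMT1 OB minus siDNMT1 of -0.000862 over receptor promoters, -0.00392 over exons and 0.00213 over introns. Shifted to a common promoter median, the value for promoters turned to 0.0230, near the 0.0260 of the NC step. Library medians again lay further apart than the median difference per promoter, so both shifted values depend on the method. All entries fell further in that step, with medians of -0.00654, -0.00934 and -0.0119. In it 2 receptor promoters fell, where 2.33% of all promoters fell, and 2 rose, where 1.03% of all rose. For exons the counts were 2 that fell and 3 that rose, beside 2.56% and 1.04% of all exons, and for introns 2 and 1, beside 2.32% and 0.962% of all introns. The steps share libraries with the siRNA comparisons, since NC OB is the minuend here and the subtrahend there, so the rise in NC cells and the fall with DNMT1 siRNA after induction are not separate observations.

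**Figure D5:**
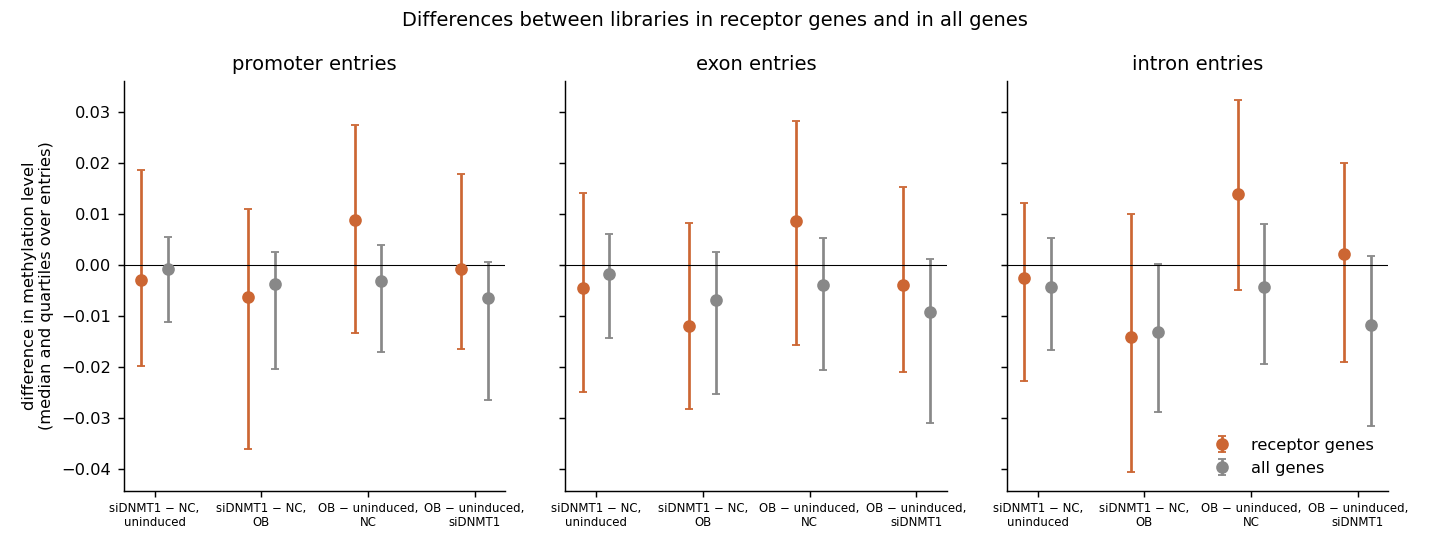
Difference in methylation level between libraries (vertical axis, median and quartiles over entries) for the 4 comparisons (horizontal axis) in promoter, exon and intron entries, for receptor genes and for all genes. In the step from NC to NC OB the receptor medians are 0.00884, 0.00854 and 0.0139, above 0, and those of all genes are below 0.

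Of 22 receptors with a known ligand or role, 5 had a level in any of the 3 classes. Olfr1393 is described above. Olfr78, a receptor for short-chain fatty acids in blood vessels and kidney, had an exon level of 0.538 in NC, 0.544 in siDNMT1, 0.549 in NC OB and 0.533 in siDNMT1 OB. Olfr73, the eugenol receptor, read 0.503, 0.411, 0.423 and 0.455 in its exons, and the same in its 3′ UTR. Vmn2r1, a type 2 receptor co-expressed with other Vmn2r genes, had 0.403, 0.441, 0.439 and 0.428 in its exons and 0.485, 0.422, 0.465 and 0.484 in its introns. Vmn2r116, the receptor of the male pheromone ESP1, had 0.376, 0.359, 0.435 and 0.447 in its introns. In these 5 genes no difference with DNMT1 siRNA reached 0.1.

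The promoters of genes that work with the receptors had a lower median level than receptor promoters. A list of 27 genes of chemosensory signalling, receptor transport and neuron development had 16 promoters with a level, and 8 of the 16 lay under 0.1, with a median of 0.0678. All 16 had from 21 to 122 CpG before the gene start. With 20 or more CpG, receptor promoters had a median of 0.524 and other promoters of any kind 0.146. Exon and intron entries of the list had medians of 0.568 and 0.530, above those of the receptors. Ldb1 and Ebf1, factors that act at olfactory receptor enhancers, had promoter levels from 0.0135 to 0.0175 and from 0.0232 to 0.0283 over the 4 libraries. Adcy3, the adenylyl cyclase of olfactory cilia, lay between 0.0828 and 0.118, and Gnal, the olfactory G protein, read 0.222 in NC, 0.228 in siDNMT1, 0.170 in NC OB and 0.142 in siDNMT1 OB. The most methylated were Cngb1, a subunit of the olfactory channel, from 0.711 to 0.730, and Rtp2, which helps to carry receptors to the membrane, from 0.687 to 0.705. Lhx2, another enhancer factor, lay between 0.582 and 0.638. In the siRNA comparisons 0 of the 16 promoters changed by at least 0.1, where 3.19% of all promoters changed in either, a share too low for so short a list to show a difference. Of 8 genes of the heterochromatin that covers receptor clusters in the nose, 7 promoters had a level and 0 changed, which is no result about the list beside the same 3.19%. They ranged from Suv39h2 and Kdm1a at levels under 0.03 to Ehmt1, a histone H3K9 methyltransferase, which read 0.830, 0.831, 0.840 and 0.770. Of the other chemosensory receptor families, the trace amine receptors had 1 entry (Taar4, exon, 0.832, 0.829, 0.832 and 0.807) and the formyl peptide receptors 1 (Fpr3, intron, 0.470, 0.430, 0.395 and 0.399), with 0 promoters in either.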

How the data were processed

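Per the processing notes, reads were trimmed (Trimmomatic 0.36) and mapped to mm10 in Bismark 0.16.3, and the authors deposited for each of the 4 libraries the fraction of methylated CpG per region. The promoter is the 2 kb upstream of a transcription start. The coverage minimum is not given in the sources used here. Groups came from the sample labels. Entries with a level in all 4 libraries were joined by Ensembl identifier to GENCODE vM21, and 24 promoter identifiers did not match. CpG and CCGG were counted on GRCm38.p6. With 1 library per condition no test was run, and differences were described with the share of all entries past 0.1 (0.05 and 0.2 as alternatives). The functions were tested on simulated data. The members, gene lists and the list of known receptors were chosen with earlier results of these data known, and the limit of 10 annotated receptors for a cluster was set after the values were seen. Named genes are the promoters changed in both siRNA comparisons (at most 6 per direction), the 4 largest falls and rises of a promoter and the 2 largest of an exon or intron in each, the 5 lowest and 5 highest promoters, and known receptors. Work was done in Python 3.11.15 (scipy 1.17.1, numpy 2.4.6, pandas 2.3.3, matplotlib 3.10.9). Repeat entries carry no coordinates and were left out.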

Additional observations from a re-analysis of the deposited data

Results flagged for a closer look

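The promoter of Olfr1311 changed in opposite directions with DNMT1 siRNA, by 0.341 before OB induction and by -0.163 after it. The introns of Vmn2r13 did the same, by 0.105 and -0.146, with levels of 0.337 in NC, 0.442 in siDNMT1, 0.516 in NC OB and 0.370 in siDNMT1 OB. Neither difference between the states was tested, since each condition is 1 library. Over all promoters 50 changed in opposite directions in this way, and over all introns 41.

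The 3′ UTR of Olfr520, outside the comparisons above, read 0.227 in NC, 0.667 in siDNMT1, 0.143 in NC OB and 1.000 in siDNMT1 OB. It was 0.439 higher with DNMT1 siRNA before induction and 0.857 higher after it, while the exon entry of the same gene was lower in both. It was the only receptor UTR entry to rise by at least 0.1 in both comparisons. The depth behind these values is unknown.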

How the results depend on the processing

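No paired analysis was possible because the labels carry no replicate numbers and each condition is 1 library. Of 72 medians recomputed, 61 stayed inside the 95% order-statistic interval of the value reported, which treats entries as independent. Some of the 61 could not move. Keeping autosomes only dropped none of the 93 promoters or 97 introns, and centring leaves the mean promoter level as it was. Centring each library on the median of its class turned the medians after OB induction to 0.00370 in promoters, 0.00105 in exons and 0.00211 in introns, that of introns before induction to 0.00424 and that of siDNMT1 promoters upon induction to 0.0230, and moved that of NC promoters upon induction to 0.0260. Exons changed after induction were then 1. In each of these comparisons the library medians lay further apart than the median difference per entry, so the centred values depend on this choice of shift. At a mean level of at least 0.5 the medians after induction were -0.0208 in promoters and -0.0275 in introns, that of siDNMT1 promoters upon induction was -0.00946 and the median receptor promoter level was 0.617. With Olfr genes alone the intron median before induction was -0.00903.

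Of 80 counts recomputed, 48 stayed within 1.5 times the count reported. These include the promoter and intron counts on autosomes only, which could not change. At a threshold of 0.05 the changed entries were 18 promoters before and 19 after OB induction, 19 promoters from NC to NC OB and 11 from siDNMT1 to siDNMT1 OB, 12 and 14 exons, and 14 and 21 introns. At 0.2 they were 1 and 1 promoters, 0 from NC to NC OB, 0 and 1 exons, and 1 and 1 introns. With at least 10 CpG before the gene they were 2 and 5 promoters, 1 exon after induction, and 2 and 1 introns. At a mean level of at least 0.5 they were 0 and 4 promoters, 1 and 2 upon induction in NC and siDNMT1, 1 exon after induction, and 0 and 2 introns. Olfr genes gave 2 and 2 introns. Promoters over no other gene's exon gave 2 from NC to NC OB. Counting identical entries once, an alternative added after the values were seen, left 4 introns after induction. The causes were not tested. Depth per region is unknown, so few reads could lie behind the largest differences. Levels such as those of Olfr740, Olfr1311 and Olfr39 rest on 1 library each.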
